A study of Gallus gallus with 18 samples.

Results

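The nuclear genes of oxidative phosphorylation were compared between control chickens and chickens exposed to acute heat. A gene was taken when its symbol in the array's probe annotation began with NDUF, SDHA to SDHD, UQCR, COX4 to COX8 or ATP5, and 78 of the 13009 genes with a probe set of 1 symbol met this rule. They comprised 33 subunits of complex I, 2 of complex II, 8 of complex III, 9 of complex IV and 13 of complex V. The other 13 were 8 assembly factors of complex I (NDUFAF1 to NDUFAF8), 4 of complex II (SDHAF1 to SDHAF4) and the coupling factor ATP5S. Symbols are those of the array annotation, so that the beta subunit of ATP synthase is ATP5B.

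The labels give the chickens as 8 days of age, kept at 28 ± 1 °C for 8 days. Control samples, carrying the time label T0, came from birds left at that temperature. Heat samples, labelled T3, came from birds exposed to 40 ± 1 °C for 3 h, so time of sampling and heat cannot be told apart. Cerebral cortex (called brain here), liver and leg muscle were profiled on 18 Affymetrix chicken arrays, 3 in each of 6 groups. No breed, genetic change or drug is named in the labels. They give 24 birds, 12 male and 12 female, and call the arrays biological replicates without saying which birds, or how many, went to each. The p-values therefore measure the spread between these samples.

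Oxidative phosphorylation passes electrons from NADH through complex I, or from succinate through complex II, to complex III and then by cytochrome c to complex IV, where oxygen is reduced. Complexes I, III and IV pump protons, and complex V, the ATP synthase, uses the gradient to make ATP. Cortex and working muscle depend heavily on this pathway, and its complexes mix subunits encoded in the nucleus with subunits encoded in mitochondrial DNA, except complex II, which is nuclear only.

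Intensities were compared as log2(intensity + 16), so differences of dim probe sets are understated. Tests were made with limma across 19220 probe sets in each tissue, and a gene was called when its Benjamini-Hochberg adjusted p was under 0.05. Probe sets dimmer than the median probe set of a tissue were not tested, which left 75 of the 78 genes for brain, 76 for muscle and 74 for liver. COX7B, a small subunit of complex IV, and ATP5J, subunit F6 of the ATP synthase stalk, were tested nowhere, ATP5G2 was tested in muscle alone, and NDUFS5 was not tested in liver. Array medians lay between 79.7 and 99.3, and the lowest correlation between 2 arrays of a group was 0.976. Over 10 neuron markers the level was 97.5% to 104% of the brain control mean on brain arrays and at most 4.0% elsewhere. Over 14 skeletal muscle markers it was 94.1% to 108% of the muscle control mean on muscle arrays and at most 1.82% elsewhere. Over 17 hepatocyte markers it was 91.1% to 112% of the liver control mean on liver arrays, but it reached 19.2% on brain heat array 1 and 29.5% on muscle heat array 3.

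In brain, subunits of all the proton-pumping complexes and of the ATP synthase read lower after heat, with complex I showing most of the calls. Of the 75 genes tested, 27 fell and none rose by limma with Benjamini-Hochberg adjustment, against 5.74% of all probe sets tested that fell and 6.55% that rose (12.3% in either direction). At an unadjusted p under 0.05, 56 were lower and 0 higher (74.7% and 0%), against 16% and 15.9% of all probe sets. The median log2 difference over the 75 genes was -0.48, beside -0.00 over all probe sets and -0.02 over the 9609 brightest probe sets tested. In 58 of the 75 genes the 3 heat arrays all lay below the 3 controls, and in 2 they all lay above, against 18.2% and 18.3% of all probe sets. In bulk tissue, fewer cells of a type and less RNA per cell cannot be told apart.

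The count of calls in brain depended on single arrays. No gene of the set was called when control array 1, 2 or 3, or heat array 2 or 3, was left out. Calls over all probe sets were then also few, with 0%, 1.14% and 0.0052% lower without control arrays 1, 2 and 3, and 0% and 1.55% without heat arrays 2 and 3. Without heat array 1, 55 of 75 genes were called lower, and 12.6% of all probe sets. Adjusted p-values of the 27 calls were bunched between 0.027 and 0.050, with UQCR11 next at 0.052. The median difference moved less, from -0.36 without heat array 3 to -0.63 without heat array 1.

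**Figure D1:**
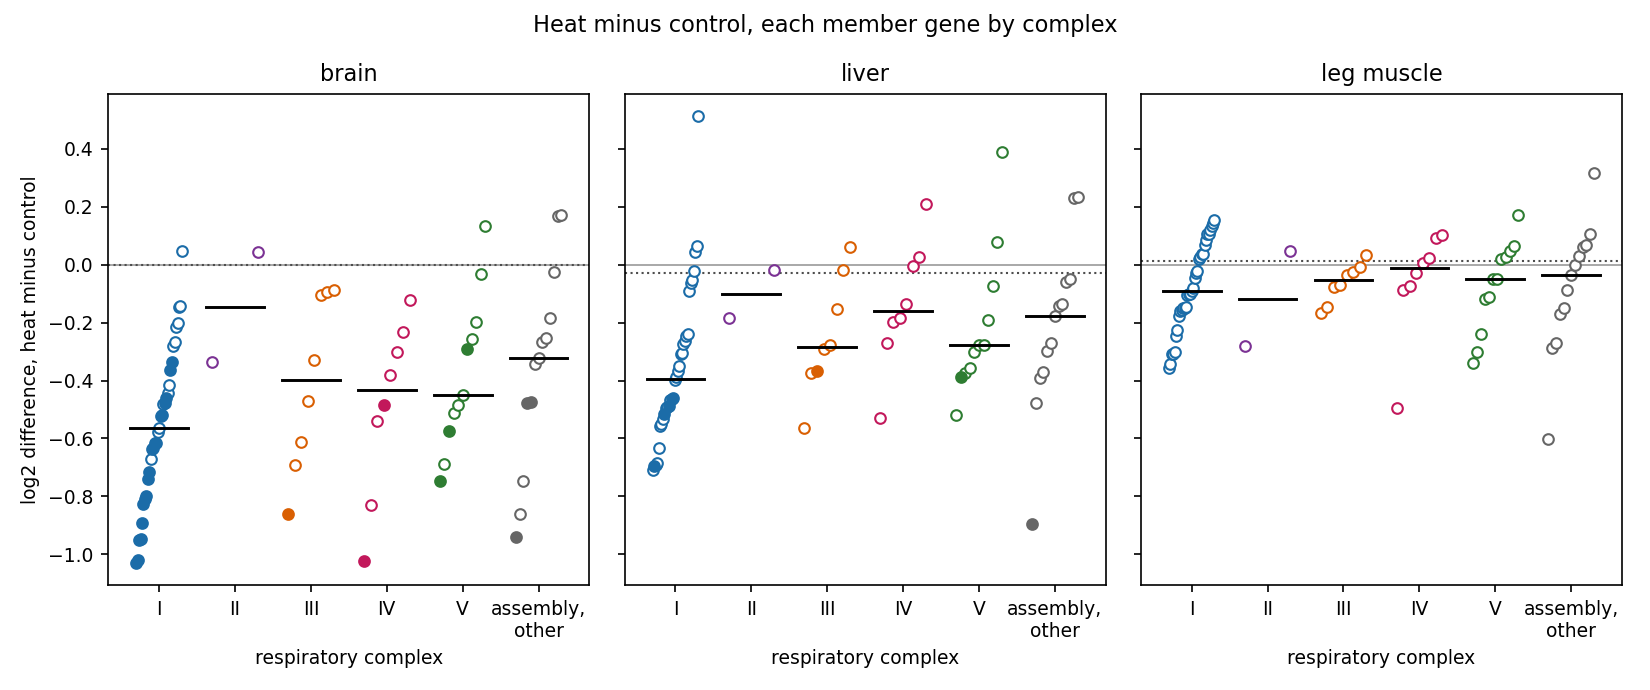
Log2 difference between heat and control (vertical axis) for each gene, grouped by respiratory complex, in brain, liver and leg muscle. Filled points passed the limma test, open points did not, black bars are group medians and the dotted line is the median of all probe sets tested. The complex I medians are -0.56 (brain), -0.39 (liver) and -0.09 (muscle), and the muscle panel holds no filled point.

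Complex I, the NADH dehydrogenase, had 18 of 33 subunits lower in brain, with a median log2 difference of -0.56. NDUFB7, a supernumerary subunit of the membrane arm, read 1643, 1864 and 1996 on the control arrays and 1293, 759 and 727 on the heat arrays. Its heat arrays all lay below its controls, with array 1 nearest to them. It fell by 1.02 ± 0.21 (SE) on the log2 scale, 2.03-fold (n = 3 per group, limma adjusted p = 0.027). NDUFA1, another small membrane-arm subunit, read 3955, 4288 and 4399 in controls and 3410, 1781 and 1424 after heat. The difference was larger on heat arrays 2 and 3 than on array 1, and the gene fell by 1.03 ± 0.27 (adjusted p = 0.044).

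The membrane-arm subunits NDUFA11 (-0.89), NDUFA13 (-0.95), NDUFB2 (-0.83), NDUFB4 (-0.71, with other probe sets at -0.39 and 0.20), NDUFB6 (-0.74), NDUFB9 (-0.63), NDUFC2 (-0.80), NDUFA8 (-0.52) and NDUFB8 (-0.48) also fell. So did NDUFA2 (-0.95), NDUFA6 (-0.81) and NDUFA5 (-0.36), which belong to the peripheral arm or its junction with the membrane. Other, dimmer probe sets of NDUFA11 and NDUFB8 differed by -0.13 and -0.27, neither called (adjusted p = 0.52 and 0.31). The supernumerary subunits, which surround the catalytic core, had a median of -0.62 with 14 of 27 lower. The 6 core subunits measured, which include carriers of the flavin and of iron-sulfur clusters, had a median of -0.40 with 4 lower: NDUFS8 (-0.62), NDUFS7 (-0.52), NDUFV2 (-0.46) and NDUFS1 (-0.34). For NDUFS1, another probe set was also called lower (-0.52, adjusted p = 0.039), and a further one was not (-0.01, adjusted p = 0.98). NDUFV1, the core subunit that binds NADH, differed by -0.22 and was not called (adjusted p = 0.19).

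Not every complex I gene read lower. NDUFA9, a supernumerary subunit of the peripheral arm, read 3316, 3651 and 3428 in brain controls and 3623, 3716 and 3391 after heat. The groups overlapped, and its log2 difference was 0.05 ± 0.08 (adjusted p = 0.74). NDUFS4, a peripheral-arm subunit, differed by -0.14 ± 0.18 (adjusted p = 0.64), and its groups also overlapped.

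Complex II, succinate dehydrogenase, is represented by SDHA, its flavoprotein, and SDHD, a membrane anchor. SDHA read 4740, 5350 and 4859 in brain controls and 5215, 5150 and 5041 after heat, with the heat arrays inside the control range. Its log2 difference was 0.05 ± 0.08 (adjusted p = 0.72). SDHD differed by -0.34 ± 0.09, with all heat arrays below the controls, and was not called (adjusted p = 0.052). A second, dimmer probe set of SDHD read higher after heat, by 0.35 in brain (adjusted p = 0.10), 0.33 in liver and 0.13 in muscle, none called.

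Complex III, the cytochrome bc1 complex, had 1 of 8 genes lower, with a median of -0.40. UQCRQ, a small supernumerary subunit, read 6193, 6441 and 6899 in controls and 5511, 3039 and 2726 on the heat arrays. All heat values lay below the controls, and array 1 was again the nearest to them. It fell by 0.86 ± 0.23, or 1.82-fold (adjusted p = 0.045). The core proteins UQCRC1 and UQCRC2, which face the matrix, differed by -0.09 (adjusted p = 0.41) and -0.10 (adjusted p = 0.36). The Rieske iron-sulfur protein UQCRFS1 differed by -0.33 (adjusted p = 0.052), and the small subunits UQCR10 and UQCR11 by -0.61 and -0.69, none of them called.

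Complex IV, cytochrome c oxidase, had 2 of 8 genes lower, with a median of -0.43. COX8A, its smallest nuclear-encoded subunit, read 5577, 5371 and 5428 in brain controls and 4140, 2357 and 1965 on the heat arrays. The 3 controls lay close together and the heat arrays lay below them, well apart from each other. COX8A fell by 1.02 ± 0.23, or 2.03-fold (adjusted p = 0.033). COX6A1, the widespread form of subunit 6A, fell by 0.48 ± 0.13 (adjusted p = 0.043). COX4I1, the largest nuclear-encoded subunit, differed by -0.30 (adjusted p = 0.12), COX6C by -0.54 (adjusted p = 0.058), COX5A by -0.23 (adjusted p = 0.16), NDUFA4 by -0.38 (adjusted p = 0.066) and COX7A2L, which links complexes III and IV, by -0.12 (adjusted p = 0.39).

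Complex V had 3 of 11 genes lower, with a median of -0.45. ATP5B, the catalytic beta subunit of the F1 head, read 6342, 6387 and 6726 in controls and 5247, 5220 and 5429 after heat. Here the 3 heat arrays lay close together, unlike those of COX8A and NDUFB7. ATP5B fell by 0.29 ± 0.07, or 1.22-fold (adjusted p = 0.035). ATP5H, subunit d of the peripheral stalk, fell by 0.58 ± 0.15 (adjusted p = 0.043) and ATP5J2, subunit f of the membrane part, by 0.75 ± 0.18 (adjusted p = 0.036). Of 4 other, dimmer probe sets of ATP5J2, 3 read higher after heat (0.18, 0.11 and 0.18, none called) and 1 fell by 0.49 (adjusted p = 0.048).

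By position in the ATP synthase, the 4 F1 genes had a median of -0.12, the 3 stalk genes tested -0.49 and the 4 membrane (Fo) genes tested -0.60. The F1 genes ATP5C1 (gamma) and ATP5E (epsilon) differed by -0.03 (adjusted p = 0.83) and 0.13 (adjusted p = 0.41). ATP5F1AZ, the alpha subunit from the Z chromosome, differed by -0.20 (adjusted p = 0.19). The genes ATP5G1 and ATP5G3, which encode the same ring protein c, differed by -0.51 (adjusted p = 0.067) and -0.45 (adjusted p = 0.061).

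Among the assembly factors, NDUFAF6 (-0.48), NDUFAF8 (-0.94) and SDHAF3 (-0.48) fell in brain, 3 of 12. NDUFAF1 and NDUFAF4 were the 2 genes whose heat arrays all lay above their controls, at 0.17 each and not called (adjusted p = 0.19 and 0.27). ATP5S differed by -0.75 and was not called (adjusted p = 0.078).

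**Figure D2:**
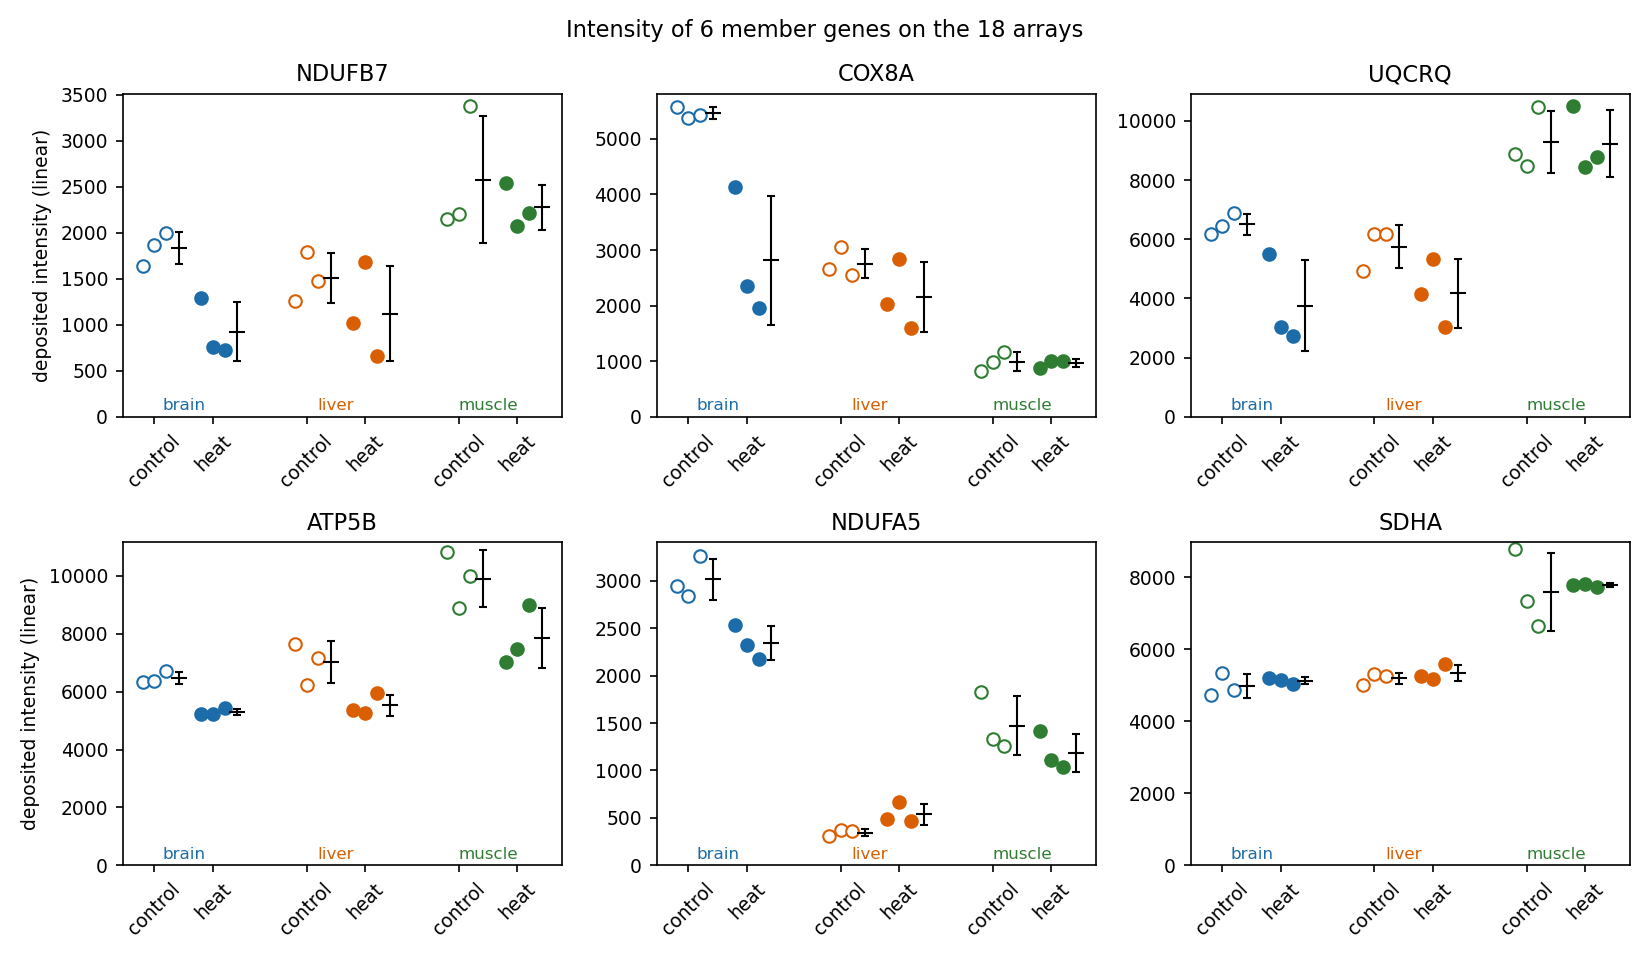
Deposited intensity (linear scale, from 0) of 6 genes on the 18 arrays, open points for control and filled points for heat, with the mean and SD (n = 3) in black beside each group. In brain the 3 heat values of COX8A run from 1965 to 4140 and those of ATP5B from 5220 to 5429, while SDHA overlaps its controls.

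The 3 brain heat arrays differed from each other over the whole set. The mean log2 difference of the 75 genes from the control mean was -0.15 on heat array 1, -0.56 on array 2 and -0.67 on array 3, and between -0.04 and 0.05 on the controls. Array 3 held the lowest heat value for 58 of the 75 genes. On array 1, 61 genes (81.3%) lay below their lowest control, and on arrays 2 and 3, 66 each (88%), against 30.7%, 37.4% and 34.5% of all probe sets on these arrays.

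Other measures moved with these arrays. The 3'/5' intensity ratio of actin, a measure of RNA integrity and of labelling along the transcript, was 1.35, 1.17 and 1.08 on heat arrays 1, 2 and 3 and 1.33 to 1.39 on the controls. Hepatocyte markers were at 19.2% of the liver level on heat array 1, 1.26% on array 2 and 2.21% on array 3, against 0.729% to 0.952% on the controls. Of the 17 measured, 12 were bright enough on brain arrays to be tested. Of these 12, 4 (ALB, FGB, FGG and PIT54) were called higher, against 6.55% of all probe sets. That filter averages control and heat arrays, so a marker could pass it through its heat arrays alone. The count is therefore not a share of the whole list. The summed intensity of the 17 hepatocyte markers ran from 20720 to 32419 on brain controls and from 8817 to 74468 on heat arrays. None was listed at 0.

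Skeletal muscle markers summed to 805 to 1166 on brain controls and 2269 to 5250 on heat arrays. Only 3 of the 14 measured were bright enough on brain arrays to be tested. Of these 3, ACTA1 and TNNT3 were called higher, against 6.55% of all probe sets. Markers high only after heat could pass that filter, so this count is not a share of the whole list either. The 5 erythrocyte markers measured summed to 13921 to 20550 on controls and to 20053, 9968 and 6098 on heat arrays 1, 2 and 3. Cytosolic ribosomal protein genes had a median difference of -0.44 in brain, with 4 of 62 lower and 0 higher, against 5.74% and 6.55% of all probe sets. The part of these measures in the brain result was not tested, except that the result without heat array 1 is given above.

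**Figure D3:**
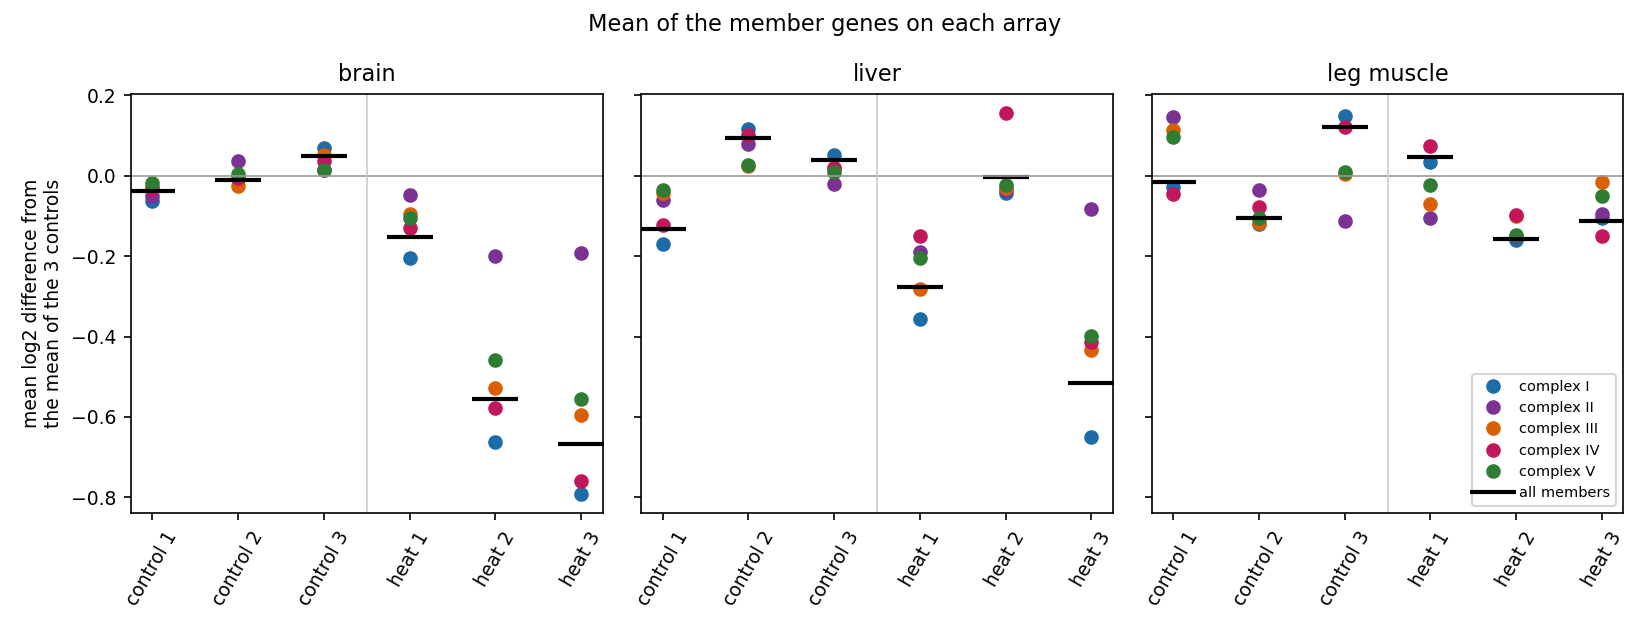
Mean log2 difference from the mean of the 3 controls (vertical axis) for the genes of each complex on each array, by tissue, with black bars for all genes of the set. Brain heat arrays 2 and 3 lie at -0.56 and -0.67 for all genes, brain heat array 1 at -0.15, and liver heat array 2 at -0.00.

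In liver, complex I genes again read lower after heat, with smaller differences and fewer calls. Of 74 genes, 7 fell and none rose by limma with Benjamini-Hochberg adjustment, against 6.13% of all probe sets that fell and 6.94% that rose, so the 9.46% called among these genes lay near the background. At an unadjusted p under 0.05, 24 were lower and 2 higher, 35.1% in either direction against 32.5% of all probe sets, with 32.4% lower against 16.1%. The median log2 difference was -0.28, beside -0.03 over all probe sets. Groups did not overlap in 21 genes that lay below and 4 above, against 19.4% and 17.7% of all probe sets. The liver count was 4, 1 and 0 without control arrays 1, 2 and 3, where 5.32%, 1.7% and 1.24% of all probe sets were lower. Without heat arrays 1, 2 and 3 it was 1, 19 and 2, where 1.51%, 5.4% and 2.63% were.

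The liver calls in complex I were NDUFB8, NDUFS7, NDUFS8 and NDUFV1, and 3 of these 4 are core subunits. NDUFV1, where NADH is oxidised, read 3065, 2937 and 2996 on the controls after quantile normalisation and 2030, 2070 and 2176 on the heat arrays. The 3 arrays of each group lay close together, and the groups did not overlap. NDUFV1 fell by 0.52 ± 0.11 (adjusted p = 0.021), and it was also called without control array 1, heat array 2 or heat array 3, but not without the other 3 arrays. NDUFS8 fell by 0.70 ± 0.16 (adjusted p = 0.027), NDUFS7 by 0.46 ± 0.12 (adjusted p = 0.035) and NDUFB8 by 0.49 ± 0.13 (adjusted p = 0.041). The core genes had a median of -0.46 and the supernumerary ones -0.37. NDUFS1 differed by -0.37 and was not called (adjusted p = 0.065).

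UQCRC2, a core protein of complex III, read 6355, 5970 and 6115 in liver controls and 4436, 4898 and 4949 after heat, all below the controls. It fell by 0.37 ± 0.10 (adjusted p = 0.041). UQCRFS1 differed by -0.37 (adjusted p = 0.085) and UQCRC1 by -0.28 (adjusted p = 0.10), neither called. ATP5B read 7471, 6800 and 7139 in controls and 5186, 5585 and 5570 after heat, and fell by 0.39 ± 0.09, or 1.31-fold (adjusted p = 0.032). Its heat arrays lay close together, as they did in brain. ATP5F1AZ, ATP5G3 and ATP5G1 differed by -0.36, -0.37 and -0.19 in liver and were not called (adjusted p = 0.075, 0.056 and 0.43).

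The complex I assembly factor NDUFAF3 showed the largest difference of the set in liver. It read 1602, 1757 and 1724 in controls and 778, 1073 and 880 after heat, without overlap. NDUFAF3 fell by 0.90 ± 0.15, or 1.86-fold (adjusted p = 0.012).

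None of the 8 complex IV genes tested in liver was called, and their median was -0.16. COX8A differed by -0.53 (adjusted p = 0.12) and COX7A2L by 0.21 (adjusted p = 0.28), the latter with all heat arrays above the controls. COX6A1, NDUFA4, COX5A and COX4I1 lay between -0.20 and 0.03. In complex II, SDHD differed by -0.18 (adjusted p = 0.25) and SDHA by -0.02 (adjusted p = 0.91). The medians of complexes II, III and V were -0.10, -0.29 and -0.28. Without heat array 3, the median of complex IV turned to 0.04.

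NDUFA5, a peripheral-arm subunit of complex I, differed in opposite directions in the tissues. In liver it read 313, 379 and 372 in controls and 456, 641 and 457 after heat, so that all heat arrays lay above the controls. The log2 difference was 0.51 ± 0.17 and was not called (adjusted p = 0.077). In brain it read 2947, 2842 and 3260 in controls and 2532, 2326 and 2169 after heat, and fell by 0.36 ± 0.10 (adjusted p = 0.045). The difference between brain and liver was -0.88 ± 0.23 and did not pass the interaction test (adjusted p = 0.073).

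The liver arrays also differed among themselves. The mean of the 74 genes from the control mean was -0.13, 0.09 and 0.04 on control arrays 1, 2 and 3, and -0.28, -0.00 and -0.51 on heat arrays 1, 2 and 3. The actin 3'/5' ratio was 1.42, 1.64 and 2.21 on the controls and 2.77, 2.17 and 1.52 on the heat arrays. Heat array 2 lay inside the range of the controls on both measures. Skeletal muscle markers summed to 950 to 1331 on liver controls and 893 to 4671 on heat arrays. Their part was not tested.

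ATP5B, NDUFB8, NDUFS7 and NDUFS8 were called lower in both brain and liver, 4 of the 27 calls in brain (14.8%) and of the 7 in liver (57.1%). They make up 5.41% of the 74 genes tested in both, against 1.57% of all probe sets tested in both. They come from separate arrays, but whether the same birds gave both tissues is not stated. NDUFS8, an iron-sulfur subunit on the electron path of complex I, read 2498, 2631 and 3029 in brain controls and 2299, 1542 and 1545 after heat. In liver, after quantile normalisation, it read 3659, 4265 and 4283 in controls and 2190, 3152 and 2256 after heat. The groups did not overlap in either tissue, and the heat array nearest to the controls was array 1 in brain and array 2 in liver.

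In leg muscle, no gene of the set was called by limma with Benjamini-Hochberg adjustment among 76 tested, and 1 of all 19220 probe sets was (0.0052%). At an unadjusted p under 0.05, 8 of the 76 genes (10.5%) and 3101 of all probe sets (16.1%) were past the threshold, all 8 of them lower. The median log2 difference was -0.05, beside 0.01 over all probe sets, and turned to 0.01 without control array 3. Groups did not overlap in 5 genes that lay below and 1 above, against 11.7% and 10.1% of all probe sets.

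NDUFB8 had the smallest p in muscle, with 5125, 4775 and 5546 in controls and 4365, 3768 and 4047 after heat. The groups did not overlap, the log2 difference was -0.34 ± 0.11, and the gene was not called (adjusted p = 0.20). ATP5B read 10844, 8896 and 9995 in controls and 7032, 7487 and 9012 after heat, where 1 heat value lay inside the control range. Its difference of -0.34 ± 0.12 (adjusted p = 0.24) lay close in size to those of brain and liver. COX5A differed by -0.50 ± 0.23 (adjusted p = 0.34), and SDHD by -0.28 ± 0.09 (adjusted p = 0.21). NDUFS5 and NDUFAB1, the acyl carrier subunit of complex I, differed by -0.31 and -0.22, UQCRC1 and UQCRC2 by -0.17 and -0.15, ATP5F1AZ and ATP5G2 by -0.24 and -0.30, and COX6C and COX7A2L by 0.10 and 0.09, none called.

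Muscle arrays varied within groups: the mean of the 76 genes ran from -0.10 to 0.12 on controls and from -0.16 to 0.05 on heat arrays, and the actin 3'/5' ratio from 2.0 to 3.43. Hepatocyte markers were at 29.5% of the liver level on heat array 3 and 1.27% to 6.66% on the other muscle arrays. Their part was not tested.

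**Figure D4:**
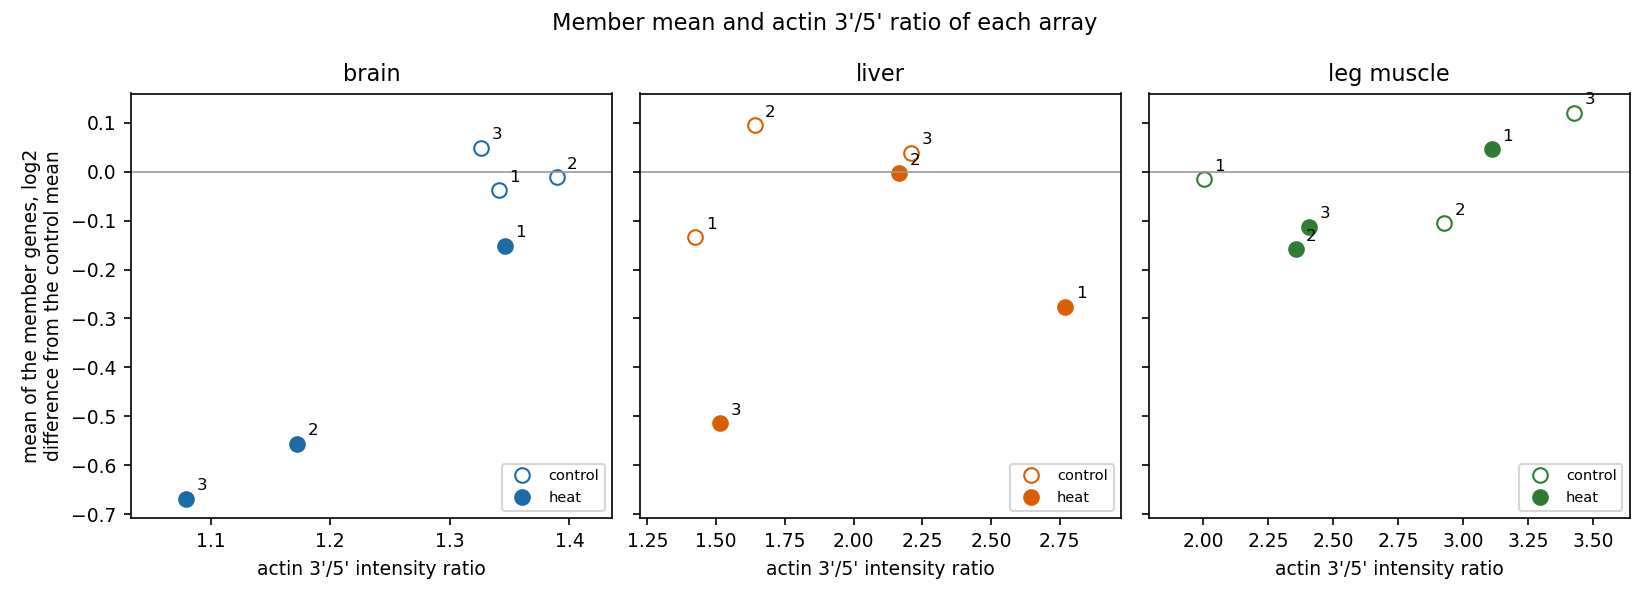
Mean log2 difference of the genes of the set from the control mean (vertical axis) against the actin 3'/5' intensity ratio (horizontal axis, own range per tissue) for each array, numbered by replicate, open for control and filled for heat. In brain, heat arrays 2 and 3 are lowest on both axes, while liver heat array 1 has the highest ratio of its tissue, 2.77, at a mean of -0.28.

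Whether heat acted differently between tissues was tested as an interaction over the 18 arrays, in contrasts that share their arrays with the comparisons above. By limma with Benjamini-Hochberg adjustment, 0 of 75 genes were called between brain and liver, where 1.7% of all probe sets were (0.783% lower and 0.921% higher), and 5 had an unadjusted p under 0.05 (6.67% against 15.2% of all probe sets). Between brain and muscle 0 of 76 were called, against 0.341% of all probe sets, and 29 had an unadjusted p under 0.05 (38.2% against 11.5%). Between liver and muscle 0 of 76 were called, against 0.968%, and 5 had an unadjusted p under 0.05 (6.58% against 12.2%).

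The median interaction was -0.41 for brain against muscle, -0.21 for brain against liver and -0.19 for liver against muscle. COX8A showed -1.0 ± 0.33 between brain and muscle (adjusted p = 0.23), and NDUFV2, a core iron-sulfur subunit, -0.59 ± 0.20 (adjusted p = 0.23). NDUFB4, NDUFB2, UQCRQ, ATP5J2 and COX6C followed in that contrast, at -0.86, -0.86, -0.85, -0.79 and -0.64. Between brain and liver, NDUFB1 and NDUFB3 showed -0.54 and -0.58, UQCR11 -0.67 and COX7A2L -0.33. Between liver and muscle, NDUFA5 showed 0.81 (adjusted p = 0.12) and NDUFV2 -0.60 (adjusted p = 0.18), and none of the genes named here was called. Without brain heat array 1, 5 of 76 genes were called lower in brain against muscle, against 0.839% of all probe sets. In brain against liver 2 of 75 were, against 1.49%. Without liver heat array 2, 1 of 76 was called lower in liver against muscle, against 0.553%. On the full set of arrays, the larger count of calls in brain is therefore not shown to be a difference in heat effect between tissues.

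Levels in unheated birds were then compared between tissues, on arrays scaled to equal trimmed means, with deposited intensities given below for single arrays. A probe set was tested when it passed the filter in either tissue of a pair. A gene could thus be tested through only the tissue where it is high, as ATP5G2 was through muscle. In muscle, 49 of 76 genes were higher than in brain and 4 lower, against 41% and 33.2% of all probe sets, with a median log2 difference of 0.55 beside 0.14. With the deposited scaling 32 were higher and 8 lower, against 29.7% and 40.5%, with a median of 0.29 beside -0.10. Against liver, 57 of 76 were higher and 2 lower, against 34.4% and 27.7%, with a median of 0.69 beside 0.08. Called higher in muscle than in both other tissues were 44 of 76 genes (57.9%), against 24.4% of all probe sets tested in both comparisons. Between brain and liver, 16 of 75 were higher in brain and 9 lower, against 36.1% and 37.8%, so fewer of these genes were called than of all probe sets, and the median was 0.08 beside -0.06. With the deposited scaling the counts were 26 and 2 (40.2% and 32.2% of all probe sets) and the median 0.23, and with quantile normalisation over 18 arrays 34 and 5 (35.6% and 39.8%) and 0.29. That count of 9 lower became 5 without brain control array 1 or 3 and 4 without liver control array 3, where 36%, 35.5% and 35.7% of all probe sets were lower.

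**Figure D5:**
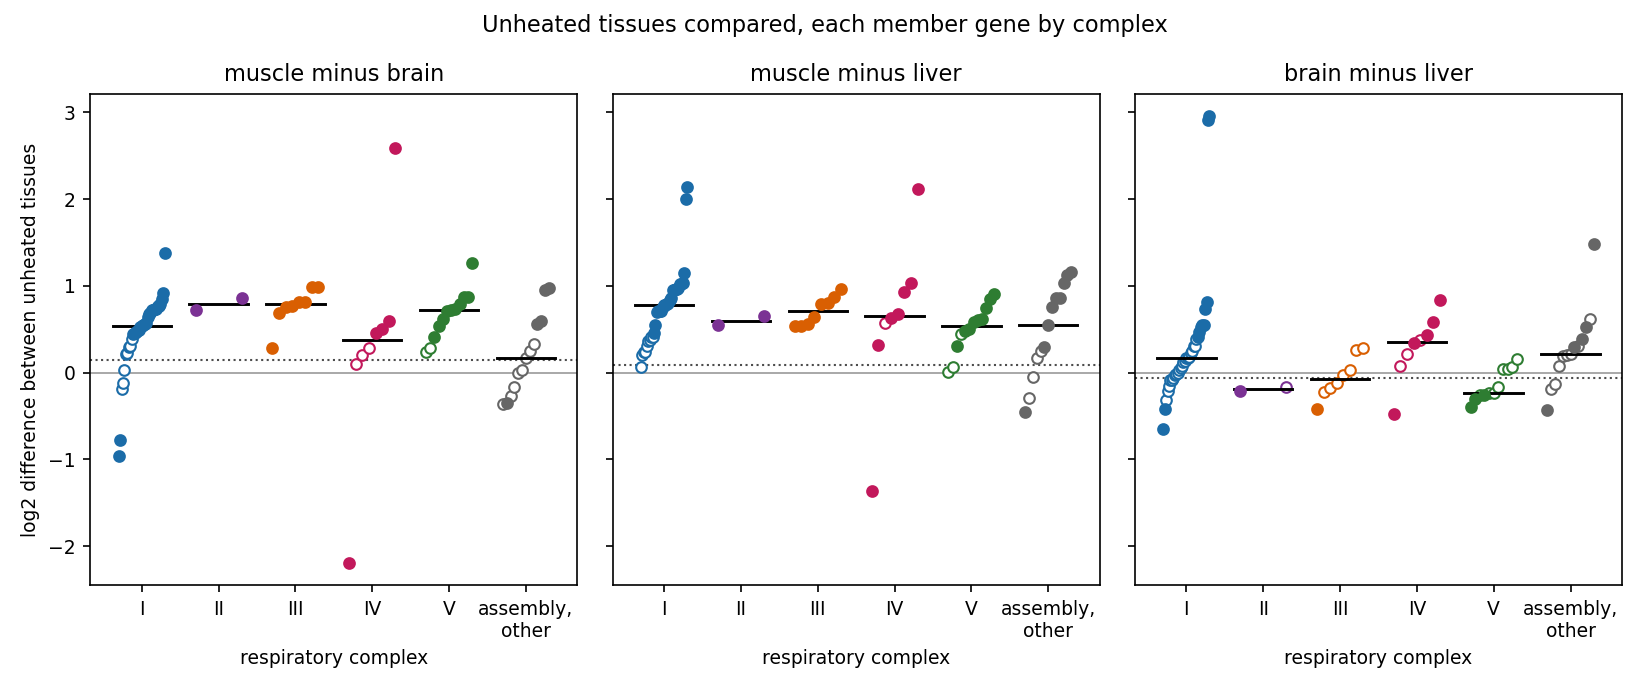
Log2 difference between unheated tissues (vertical axis) for each gene, grouped by respiratory complex. Filled points passed the limma test, open points did not, black bars are group medians and the dotted line is the median of all probe sets tested. In both comparisons with muscle all complex II and III genes are filled and higher in muscle, and COX8A is the lowest point, at -2.20 and -1.36.

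By their chosen probe sets, all 8 complex III genes and both complex II genes were higher in muscle than in brain and than in liver. Other probe sets disagreed against liver for UQCRB, one at -2.26 (adjusted p = 8.2e-10) and its mean over probe sets at -0.38, and for SDHD, at -0.74 (adjusted p = 0.00029). For complex I, 21 of 33 were higher and 2 lower than in brain, and 24 higher than in liver, with medians of 0.54 and 0.78. Of 12 complex V genes, 10 were higher than in brain and 9 than in liver, with medians of 0.72 and 0.54. Against brain, 24 other probe sets were called along with the chosen one, and 21 of them took its direction. The reverse was read for ATP5J2, at -0.95 and -0.55 beside 0.87 (adjusted p = 5.1e-06 and 0.00033). It was also read for NDUFA12 of complex I, at -0.96 beside 0.49 (adjusted p = 0.0076).

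UQCRC1 read 10785, 8625 and 8594 in muscle, 5563, 5478 and 5819 in brain and 5972, 4746 and 5843 in liver. The muscle arrays lay above all the others, and the differences were 0.99 ± 0.11 against brain and 0.87 ± 0.11 against liver (limma adjusted p = 3.7e-07 and 2.7e-06). NDUFS1, the largest iron-sulfur subunit of complex I, was higher in muscle by 1.38 ± 0.12 than in brain and by 0.96 ± 0.12 than in liver. SDHA was higher in muscle by 0.86 ± 0.09 and 0.65 ± 0.09, ATP5B by 0.87 ± 0.11 and 0.61 ± 0.11, and COX4I1 by 0.60 ± 0.11 and 0.67 ± 0.11. NDUFV1 was higher by 0.92 and 0.71, NDUFB10, a membrane-arm subunit, by 0.79 and 0.95, UQCRC2 by 0.99 and 0.57, UQCRFS1 by 0.82 and 0.79, ATP5F1AZ by 0.74 and 0.50, ATP5G2 by 1.27 and 0.91 and ATP5C1 by 0.71 and 0.75, against brain and liver in that order. ATP5G2 passed the filter through muscle alone, and the counts above include it. NDUFS8 was higher than in brain (0.85) and was not called against liver (0.20).

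Complex IV genes lay far apart. COX5A, which with COX4 forms an early assembly module, read 2137, 2602 and 3190 in muscle, 509, 482 and 528 in brain and 511, 691 and 739 in liver. It was higher in muscle by 2.59 ± 0.19 than in brain and by 2.11 ± 0.19 than in liver (adjusted p = 1.1e-09 and 3.2e-08). COX7A2L and NDUFA4 were higher in muscle by 0.46 and 0.50 than in brain and by 1.04 and 0.93 than in liver. By its chosen probe set, COX6A1 was called against liver alone (0.31). A second probe set of COX6A1 was higher in muscle than in brain (0.94, adjusted p = 0.00082) and lower than in liver (-1.51, adjusted p = 1.1e-05). A second, dimmer probe set of COX5A disagreed, with 0.38 against brain (adjusted p = 0.054) and -1.04 against liver (adjusted p = 4.6e-05).

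COX8A had the opposite order, with 820, 987 and 1168 in muscle, 5577, 5371 and 5428 in brain and 2654, 3055 and 2557 in liver. The tissues did not overlap. The log2 difference of muscle was -2.20 ± 0.22 against brain and -1.36 ± 0.22 against liver, or 4.58-fold and 2.57-fold lower (adjusted p = 8.0e-08 and 3.9e-05). Brain was higher than liver by 0.83 ± 0.22 (adjusted p = 0.00245). In mammals, COX8A is the widespread isoform and a separate gene encodes the muscle form, which was not analysed here.

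NDUFS4 and NDUFA5, both in the peripheral arm of complex I, were low in liver. NDUFS4 read 219, 266 and 272 in liver, 1093, 1152 and 728 in muscle and 2126, 2563 and 2201 in brain, with no overlap between tissues. It was higher in brain than in liver by 2.96 ± 0.22 and higher in muscle than in liver by 2.0 ± 0.22 (adjusted p = 1.1e-09 and 3.8e-07). NDUFA5 showed the same order, with differences of 2.92 ± 0.17 and 2.14 ± 0.17. Both were lower in muscle than in brain, with differences of -0.96 ± 0.22 and -0.78 ± 0.17, against the direction of most of the set.

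The remaining exceptions were SDHAF4, lower in muscle than in brain (-0.35, adjusted p = 0.043), and NDUFAF3, lower in muscle than in liver (-0.46, adjusted p = 0.048), each called in only 1 of 6 analyses that left out a control array. Another probe set of SDHAF4 was also lower in muscle than in brain (-1.51, adjusted p = 2.7e-08). Another probe set of NDUFAF3 was not lower in muscle than in liver (0.13, adjusted p = 0.28). Between brain and liver, COX7A2L and NDUFA4 were higher in brain by 0.58 ± 0.10 and 0.43 ± 0.11, and NDUFS5 by 0.73 ± 0.11. NDUFS5 passed the filter of that comparison through brain alone. The 9 genes lower in brain were NDUFS8 (-0.65), COX5A (-0.47), UQCRC2 (-0.43), SDHAF2 (-0.43), NDUFS1 (-0.42), ATP5E (-0.40), ATP5H (-0.31), ATP5B (-0.26) and SDHA (-0.21). UQCRHL, the hinge protein of complex III, was not called (0.26, adjusted p = 0.066). The ring gene ATP5G3 was called in none of the 3 comparisons. Its sister ATP5G1 was higher in muscle by 0.79 ± 0.14 than in brain and 0.85 ± 0.14 than in liver.

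The actin 3'/5' ratio of the controls ran from 2.0 to 3.43 in muscle, against 1.33 to 1.39 in brain and 1.42 to 2.21 in liver. For EF1A it ran from 1.53 to 2.30 in muscle, 1.47 to 1.56 in brain and 1.21 to 1.43 in liver. The GAPDH ratio was lowest in muscle, at 0.87 to 0.91, against 1.05 to 1.11 in brain and 1.02 to 1.14 in liver. The part of these ratios in the tissue differences was not tested. Among the set, 19 genes were read by probe sets whose names end in _s_at, which Affymetrix uses for probes that match several transcripts, and 23 by _a_at, for transcripts of 1 gene. Other probe sets of the same genes took the same direction as the chosen one for 21 of 35 in the brain comparison, 23 of 37 for muscle and 20 of 34 for liver. In brain, 6 other probe sets of 5 genes were called lower where the chosen one was not: 2 of SDHAF2, at -1.0 and -0.99 beside -0.18, and 1 each of NDUFA7 (-0.94), NDUFB3 (-0.76), ATP5O (-0.50) and NDUFA10 (-0.36).

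Genes that serve the complexes without being subunits were compared last. SDHAF1 to SDHAF4 among them belong to the set, and the SDHAF3 call in brain is the one given above. Cytochrome c, CYCS, the electron carrier between complexes III and IV, showed a brain difference of -0.18, a muscle difference of 0.10 and a liver difference of 0.12, none called. The share of all probe sets that fell was 5.74% in brain and 6.13% in liver, and 0.0052% were called in muscle. Of 31 assembly factors tested, a list that includes SDHAF1 to SDHAF4, 6 fell in brain and 5 in liver, and 0 were called for muscle. They were ATPAF2 (-0.57), TTC19, COX19, COA6, COA3 (-0.90) and SDHAF3 in brain, and FOXRED1 (-0.96), UQCC3, SURF1, COA3 (-0.94) and COX18 in liver. The carriers that exchange ADP, ATP and phosphate across the inner membrane, with the ATP synthase inhibitor ATPIF1, had 0 of 5 called in any tissue.

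The list for the tricarboxylic acid cycle, which supplies NADH and succinate, also held PDHB, a pyruvate dehydrogenase subunit outside the cycle itself. Of the 14 genes tested, IDH2 and PDHB were lower and SUCLA2 higher in brain. In liver IDH2, IDH3B (-1.05), OGDH and DLST were lower and SUCLA2 higher, by 0.68 in both tissues. Of the regulators of mitochondrial biogenesis, 1 of 12 was called in brain, GABPA at 0.42. In liver PPARGC1A, a coactivator of mitochondrial genes, was higher by 1.99 ± 0.28 (adjusted p = 0.0071) and TFB1M, a mitochondrial transcription factor, by 0.83, while PPRC1 was lower (-0.56). None of the 14 was called in muscle, where 0.0052% of all probe sets were. In either direction, 12.3% of all probe sets were called in brain and 13.1% in liver.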

How the data were processed

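The authors' deposited table gives 1 linear intensity per probe set and array. Biotinylated cRNA was prepared from total RNA, per the labels' protocols. GCOS 1.4 is named in the submitters' processing notes without its role, and the sources used here give no summarisation, background correction or scaling. Of 38535 probe sets, 96 control probe sets were left out. Of 141 probe sets of 1 symbol that met the rule, the one with the highest mean over 18 arrays stood for each gene. For 77 of the 78 symbols an entry was found in the RefSeq GRCg7b gene table.

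Deposited scaling was kept where the trimmed means (2% off each end) of a tissue's arrays lay within a ratio of 1.1 (brain 1.07, muscle 1.04), and liver (1.12) was quantile normalised. Probe sets with a mean log2(intensity + 16) below the tissue median (96.1, 82.1 and 85.1 in brain, liver and muscle) were not tested. Tests used limma 3.58.1 in R 4.3.3 (two-sided, intensity trend, Benjamini-Hochberg over all probe sets tested). Unheated tissues were compared, and interactions tested, over all 18 arrays. In both, a probe set was kept when it reached the median of either tissue of the pair. The number of arrays limits the precision.

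Same-numbered unheated samples had positive correlations of their deviations between brain and liver (0.10, 0.12 and 0.13), liver and muscle (0.44, 0.20 and 0.22) and brain and muscle (0.026, 0.22 and 0.14). Differently numbered unheated samples reached 0.23 between liver and muscle and 0.045 between brain and muscle. In the other pairs of groups the same-numbered correlations were not positive throughout. The tests reported above treated the arrays as independent. The fits were tested on simulated data with known changes.

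The genes, lists and tests were chosen with earlier results of these data known. Genes named whatever their result were anchor subunits of each complex and, per comparison, the 3 smallest p-values in complexes I, IV and V, 2 in III and 1 in II, with any call against the majority. In interactions, in muscle after heat and between unheated brain and liver, some of these are covered by the counts alone. Other genes were named after their values were seen. Alternatives were other scalings, pseudocounts of 1 and 64, other filters, a fit over 18 arrays, no trend, array weights, a replicate block, the mean over probe sets of a gene, control arrays alone and leaving out each array.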

Additional observations from a re-analysis of the deposited data

How the results depend on the processing

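The count of genes lower in brain (27 of 75) became 43 with equal trimmed means, 59 with array weights, 2 with a replicate block and 10 with the mean over the probe sets of a gene, where 6.71%, 18.1%, 0.879% and 5.08% of all were lower (5.74% as reported), and ran from 0 to 55 when each array was left out. The liver count (7 lower, 0 higher of 74) became 2 lower and 2 higher with deposited scaling, 2 lower with equal medians, 3 without a filter, 14 lower and 2 higher in a fit over 18 arrays, 4 without an intensity trend, 33 lower and 1 higher with array weights, 14 with a replicate block and 1 higher with the mean over probe sets, and ran from 0 to 19 lower when each array was left out. Of all probe sets, 4.35%, 4.01%, 2.29%, 10.1%, 6.48%, 12.5% and 7.4% were lower under these settings, from deposited scaling to the replicate block, beside 6.13%. For the settings with genes called higher, 9.85%, 9.73%, 13.5% and 6.83% of all probe sets were higher, in the order given, beside 6.94%. In muscle 1 of 76 genes was lower in a fit over 18 arrays, where 5.01% of all probe sets were. The interaction counts, 0 throughout otherwise, ran from 0 to 2, 0 to 5 and 0 to 1 lower for brain against liver, brain against muscle and liver against muscle when arrays were left out. At the highest of these counts, 1.49%, 0.839% and 0.553% of all probe sets were lower. The median over the genes stayed negative under all alternatives in brain (-0.63 to -0.33) and liver (-0.39 to -0.17), and ran from -0.12 to 0.01 in muscle, the last without control array 3. Correlations of same-numbered control and heat arrays were not positive throughout in any tissue (0.12, 0.37 and -0.09 in liver). Between unheated tissues they were positive, as given above. The labels do not say whether replicate numbers pair arrays, and these values cannot decide it, so the blocks are given here alone.

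Between unheated tissues, deposited scaling gave 32 higher and 8 lower in muscle against brain, where the median of all probe sets was -0.10 instead of 0.14 and that of the genes 0.29 instead of 0.55. For muscle against liver, the count of lower genes (2) was 1 with quantile normalisation over 18 arrays, no filter or control arrays alone, and 1 to 2 when arrays were left out. Of all probe sets, 30.8%, 18.1% and 27.5% were lower under the first 3 settings. Where leaving out an array gave 1, 26.2% to 26.9% were. For brain against liver (16 higher, 9 lower), deposited scaling gave 26 and 2, quantile normalisation 34 and 5, and leaving out an array 4 to 7 lower and 11 to 15 higher. At the count of 4 lower, 35.7% of all probe sets were lower. The replicate block gave 51 higher and 4 lower, 60 and 2, and 19 and 9 in these comparisons, beside 49 and 4, 57 and 2, and 16 and 9 as reported. Of all probe sets, 41% and 33.2%, 34.4% and 27.7%, and 36.1% and 37.8% were called as reported. The shares of all probe sets under the block are not given here. Among the named genes it ended the call of SDHA (-0.21, adjusted p = 0.065) and gave one for ATP5F1AZ (-0.23, adjusted p = 0.028), both in brain against liver, and changed no other. COX6A1 turned to -0.31 in muscle against brain with quantile normalisation and SDHA to 0.046 in brain against liver. With the mean over probe sets, COX6A1 turned to -0.60 in muscle against liver and -1.12 in brain against liver, and UQCRB to -0.38 in muscle against liver: other probe sets of these genes disagree with the chosen one. The cause of the other changes was not tested.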
